A study of Rattus norvegicus with 32 samples.

Results

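Tetraspanins are small membrane proteins with 4 transmembrane segments that gather integrins, receptors and proteases into membrane microdomains, and several of them are sorted into extracellular vesicles. The genes described here are those whose symbol is Tspan followed by a number, together with Cd9, Cd37, Cd53, Cd63, Cd81, Cd82, Cd151, Upk1a, Upk1b and Rom1. They number 30 of the 32623 genes of the count tables, and Prph2, which also belongs to the family, was not analysed here. Liver sinusoidal endothelial cells (LSECs) line the hepatic capillaries, and vesicles that they release reach neighbouring liver cells. CD9, CD63 and CD81 are widely used as vesicle markers, CD151 holds laminin-binding integrins, and the TspanC8 members escort the sheddase ADAM10 to the cell surface. TSPAN12 is a co-receptor of the Norrin receptor FZD4-LRP5 in endothelium, and CD37 and CD53 belong to leukocytes.

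RNA of rat LSECs was sequenced in 32 libraries, and the deposited values are expected counts per gene. The CCl4 model held male Wistar Han rats, of which 6 were untreated (healthy) and the others inhaled carbon tetrachloride, a toxin that scars the liver, for 2 weeks (acute, n = 5), 6 weeks (fibrosis, n = 5) or 12 to 14 weeks (cirrhosis, n = 6, a duration given for the study and not in the labels of these libraries). Per the study's methods, drinking water in this model held phenobarbital, and whether the healthy rats received it is not given in the sources used here. The thioacetamide (TAA) experiment has 5 libraries labelled control and 5 labelled TAA control, and the study describes saline-treated rats and rats given TAA by injection for 12 weeks. Which of these groups received TAA is not settled by the labels, and the labels name Wistar Han rats where the study names Sprague-Dawley. Cells were isolated some days after the last dose of toxin. Ages of the rats are not given in the sources used here.

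Totals ranged from 25646531 to 46464289 counts per library. Values below are counts per 1000000 counts of the library (CPM), scaled by the trimmed mean of M-values (TMM), computed over the 22 CCl4 libraries and apart from them over the 10 TAA libraries, so that levels are not compared between the experiments or between genes. All 10 LSEC markers checked were detected in every group, but their summed level was 14270 to 26420 CPM in healthy, 2260 to 2875 in acute, 1618 to 2564 in fibrosis and 13260 to 17160 in cirrhotic libraries. Among these markers, 9 of 10 were lower in acute and 10 of 10 in fibrosis than in healthy libraries, and 4 were lower and 1 higher in cirrhosis. Summed pan-endothelial markers (5 genes) were 9481 to 15970, 2678 to 3863, 2153 to 2666 and 5538 to 7118 CPM in the same order. Summed macrophage markers (10 genes) were 374 to 4062 CPM in healthy, 84.8 to 248.9 in acute, 37.3 to 234 in fibrosis and 911 to 3231 in cirrhotic libraries, and summed hepatocyte markers (6 genes) were 1003 to 22810, 136.5 to 862, 1213 to 4714 and 2732 to 13440 CPM. Stellate cell markers (8 genes) summed to 167 to 301 CPM in healthy, 1313 to 2129 in acute, 1267 to 1717 in fibrosis and 241 to 611 in cirrhotic libraries, and Reln alone held a mean of 1678 CPM in acute and 1378 in fibrosis. Of these 8 genes 1 was called higher and 5 lower in acute, 3 higher and 2 lower in fibrosis, and 6 higher in cirrhosis. In the TAA experiment, the counts of TAA control replicates 14 and 15 differed least of all pairs within a group (chi-square per degree of freedom 3.05, against at least 25.3 for the rest), and results that change when this pair is averaged are given both ways. The study describes its libraries as independent isolations of LSECs, the labels do not tie them to animals, and p-values measure the spread between these libraries.

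Upstream sequences are shown for members with the contrasting courses described below. Cd63 and Tspan5 were higher in acute and fibrosis, Cd81 and Tspan7 were lower, and Tspan8 was higher in cirrhosis. The 250 bases before the RefSeq transcription start come from assembly GRCr8, which is not the assembly (Rnor_6.0) the reads were mapped to, and run 5′ to 3′ along the direction of transcription. Capitals mark GGGCGG or its reverse complement CCGCCC, the core of a GC box. They lie at chr7:1921894-1922143, plus strand (Cd63), chr2:229967326-229967575, plus strand (Tspan5), chr1:207665047-207665296, plus strand (Cd81), chrX:14978628-14978877, minus strand (Tspan7) and chr7:53330937-53331186, plus strand (Tspan8).
Cd63: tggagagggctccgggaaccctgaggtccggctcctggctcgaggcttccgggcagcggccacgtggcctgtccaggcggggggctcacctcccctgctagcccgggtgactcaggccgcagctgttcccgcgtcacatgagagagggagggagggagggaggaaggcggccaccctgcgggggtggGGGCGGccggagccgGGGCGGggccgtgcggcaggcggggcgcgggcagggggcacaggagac
Tspan5: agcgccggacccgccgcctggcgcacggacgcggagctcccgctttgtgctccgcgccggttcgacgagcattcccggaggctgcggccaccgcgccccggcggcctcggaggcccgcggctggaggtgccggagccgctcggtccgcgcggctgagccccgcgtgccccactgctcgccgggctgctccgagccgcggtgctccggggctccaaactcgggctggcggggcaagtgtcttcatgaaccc
Cd81: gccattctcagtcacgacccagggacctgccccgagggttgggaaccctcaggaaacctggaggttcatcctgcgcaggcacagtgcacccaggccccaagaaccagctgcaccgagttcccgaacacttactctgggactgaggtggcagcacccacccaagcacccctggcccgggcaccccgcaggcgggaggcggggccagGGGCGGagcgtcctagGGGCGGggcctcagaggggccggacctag
Tspan7: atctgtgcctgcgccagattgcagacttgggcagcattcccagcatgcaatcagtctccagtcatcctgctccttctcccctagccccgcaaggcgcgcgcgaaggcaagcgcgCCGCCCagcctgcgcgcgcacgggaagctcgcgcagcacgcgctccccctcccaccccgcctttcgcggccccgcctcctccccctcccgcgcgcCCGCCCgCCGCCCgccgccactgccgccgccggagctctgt
Tspan8: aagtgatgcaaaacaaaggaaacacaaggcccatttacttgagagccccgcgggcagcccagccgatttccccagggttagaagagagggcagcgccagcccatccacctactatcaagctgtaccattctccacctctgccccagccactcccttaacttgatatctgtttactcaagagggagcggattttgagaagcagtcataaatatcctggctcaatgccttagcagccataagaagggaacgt

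Of the 30 members, 27 had an upstream sequence, and Cd82, Tspan4 and Tspan10 had none in the table. The motif GGGCGG, searched on both strands, was in 15 of 27 members and in 30.5% of all 33469 promoters. Cd63, Cd81 and Tspan7 held it, and it was not among the letters of the Tspan5 and Tspan8 windows. The median number of CpG dinucleotides was 16 over the members and 5 over all promoters, with 39 in Tspan5, 32 in Tspan7, 22 in Cd63, 13 in Cd81 and 6 in Tspan8. The AP-1 motif TGANTCA (both strands) was in Cd63 and Tspan32 and in 6.3% of all promoters, and the E-box CACGTG was in Cd63 alone and in 5.6% of all promoters. These matches describe the windows only.

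The comparisons with healthy LSECs ask how each stage of CCl4 injury differs from the uninjured liver. They share the 6 healthy libraries. In acute injury most tetraspanins of LSECs were lower, with 15 members lower and 3 higher of 25 tested, where a call needs a limma-voom adjusted p under 0.05 and a fold-change above 1.5. The share called over all genes tested was 73.4% (35.5% higher and 37.9% lower). The median log2 fold change was -1.87 over the tested members and -0.09 over all genes tested, and the share of all counts that the 30 members took was 0.497% to 0.734% in healthy and 0.174% to 0.201% in acute libraries. With the study's own thresholds, which leave p unadjusted, the count was again 18, beside 74.1% of all genes. Tspan8, Tspan33 and Upk1b passed the low-count filter only through the healthy libraries and therefore had to be lower. Without such genes 12 of 22 members were lower and 3 higher, with a median of -1.75, and 14 did not overlap. Of the 13570 genes then left, 71.9% were called (4928 lower and 4831 higher). The share of all genes without overlap was 60% before this exclusion and was not computed after it, so that the 14 cannot be set against it. In bulk RNA, fewer cells of a type and less RNA per cell cannot be told apart.

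At the fibrosis stage 16 members were lower and 2 higher of 25 tested, beside 70.2% of all genes called (35.3% higher and 34.9% lower), and with unadjusted p the count was also 18, beside 71.2%. The median log2 fold change was -1.95 over the members and -0.03 over all genes, and the members took 0.164% to 0.177% of the counts. Tspan8 and Upk1b again passed the filter through the healthy libraries alone, and without such genes 14 of 23 members were lower and 2 higher, with a median of -1.88, and 13 did not overlap. Of the 13932 genes then left, 69.0% were called (4813 lower and 4793 higher). The share of all genes without overlap was 58.7% before this exclusion and was not computed after it. In cirrhosis 10 members were lower and 3 higher of 25 tested, beside 51.8% of all genes called (27.1% higher and 24.7% lower), with 15 called on unadjusted p beside 54.5%, and with a median of -0.45 over the members and 0.07 over all genes. The members took 0.368% to 0.470% of the counts of cirrhotic libraries. CPM of the groups did not overlap for 17 members in acute, 14 in fibrosis and 13 in cirrhosis, beside 60%, 58.7% and 27.2% of all genes tested. Scaling by library size without TMM shifted the median of all genes by 0.41, 0.40 and 0.34 on the log2 scale in the comparisons of acute, fibrosis and cirrhosis with healthy. In cirrhosis that scaling gave 9 members higher and 8 lower, beside 54.3% of all genes called. Upper-quartile factors gave 6 higher and 10 lower, beside 53.3%. Over all genes called the share higher also moved, from 52.25% with TMM to 71.3% and 60.4% in the same order. No called member changed direction under any scaling tried. The heatmap of the 22 CCl4 libraries shows the courses gene by gene.

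**Figure D1:**
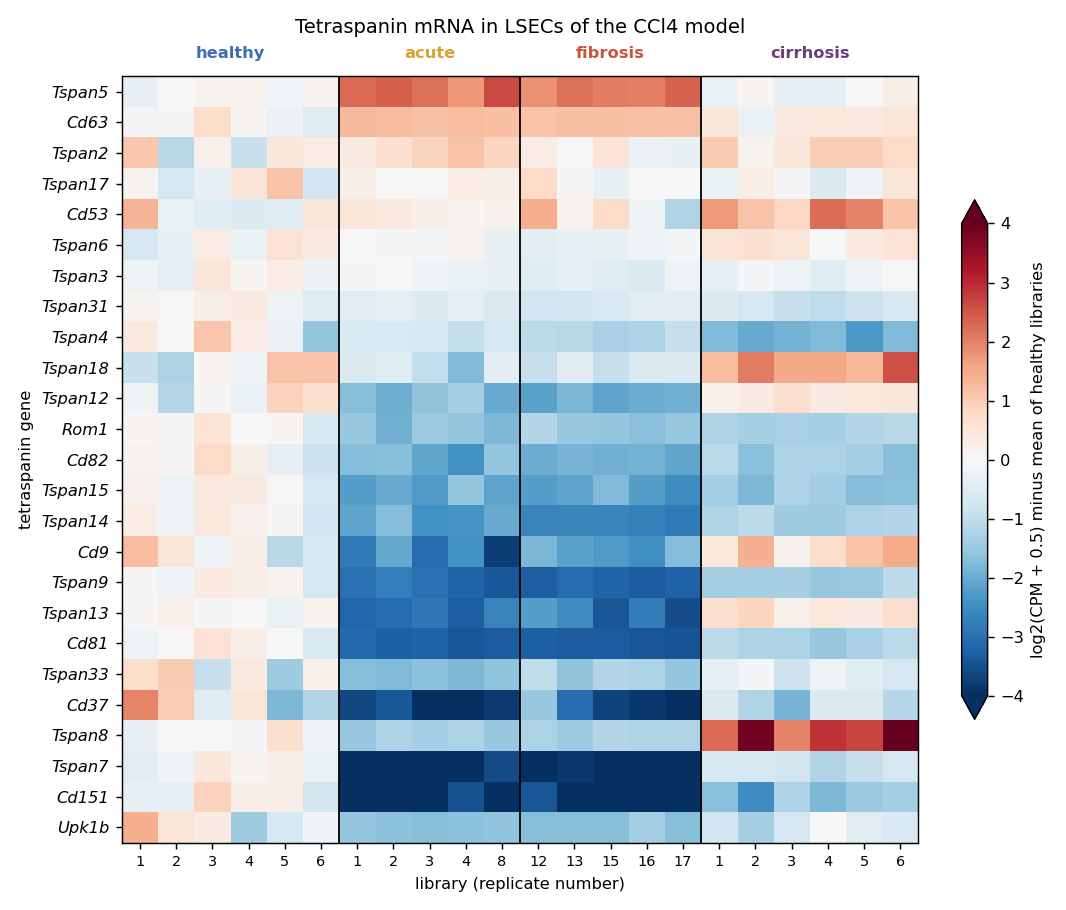
Each cell is log2(CPM + 0.5) of a tetraspanin gene (rows, the 25 members tested against healthy) in a library (columns, by replicate number) minus the mean of the 6 healthy libraries, on a colour scale that saturates at 4 log2 units either way. Most rows are blue in the acute and fibrosis columns, Tspan5 and Cd63 are red there, and Tspan8 and Tspan18 are red in the cirrhosis columns.

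Among the surface and vesicle tetraspanins, Cd81 and Cd9 fell and Cd63 rose in acute injury and fibrosis. CD81 organises receptors at the plasma membrane, and Cd81 mRNA was 920.2 to 2081 CPM (median 1397) in the healthy libraries. Its level was 162, 146, 149, 132 and 138 CPM in the 5 acute libraries and 145, 139, 138, 131 and 127 CPM in the 5 fibrosis libraries. In cirrhosis Cd81 was 488 to 676 CPM (median 588), so that every injured library lay below every healthy library, and the cirrhotic ones lay between the others. The limma-voom log2 fold change of Cd81 against healthy was -3.24 ± 0.18 (SE, adjusted p = 1.61e-08) in acute, -3.30 ± 0.17 (SE, adjusted p = 1.41e-08) in fibrosis and -1.23 ± 0.19 (SE, adjusted p = 2.39e-04) in cirrhosis.

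CD9 is a close relative of CD81 and takes part in adhesion and membrane fusion. Cd9 was 17.2 to 90.4 CPM (median 39.2) in healthy libraries, 4.98, 8.83, 4.11, 6.82 and 2.37 CPM in acute and 10.3, 8.36, 7.52, 6.57 and 11.2 CPM in fibrosis. Cirrhotic libraries held 42.7 to 107 CPM (median 73.5) of Cd9. Acute and fibrosis libraries were all below the healthy ones, whereas the cirrhotic and healthy ranges overlapped. Cd9 log2 fold changes from limma-voom were -2.88 ± 0.48 (SE, adjusted p = 1.44e-04) and -2.07 ± 0.41 (SE, adjusted p = 6.31e-04) in acute and fibrosis. In cirrhosis the value was 0.91 ± 0.38 (SE, adjusted p = 0.0512), just outside the threshold, and it passed under DESeq2 size factors, upper-quartile factors, no TMM, no low-count filter or 1 fit over all CCl4 groups, and without cirrhosis replicate 3 (1.06) or healthy replicate 1 (1.16) or 2 (1.01).

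CD63 resides in late endosomes and, in endothelium, in Weibel-Palade bodies. Cd63 was 146 to 347 CPM (median 209) in healthy libraries, 516, 513, 473, 498 and 483 CPM in acute and 462, 486, 487, 476 and 472 CPM in fibrosis, all above the healthy range. In cirrhotic libraries it was 174 to 295 CPM (median 279), with replicate 2 lowest, and overlapped the healthy ones. For Cd63 the limma-voom log2 fold change was 1.27 ± 0.19 (SE, adjusted p = 5.37e-05) in acute, 1.24 ± 0.18 (SE, adjusted p = 6.16e-05) in fibrosis and 0.31 ± 0.21 (SE, adjusted p = 0.216) in cirrhosis, which did not pass, although it did without TMM (0.66).

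CD82 (KAI1) is known as a suppressor of metastasis. Cd82 was 214 to 662 CPM (median 413) in healthy libraries, 118, 118, 91.7, 72.5 and 132 CPM in acute and 97.3, 107, 103, 105 and 92.9 CPM in fibrosis. Cirrhotic libraries held 120.3 to 186 CPM (median 158) of Cd82, and none of the injured libraries reached the healthy range. Its log2 fold changes from limma-voom were -1.87 ± 0.26 (SE, adjusted p = 3.40e-05), -1.88 ± 0.23 (SE, adjusted p = 1.45e-05) and -1.38 ± 0.24 (SE, adjusted p = 5.76e-04) in acute, fibrosis and cirrhosis.

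CD151 binds the laminin-binding integrins. Cd151 was 83.6 to 266 CPM (median 139.6) in healthy libraries, 5.39, 7.22, 3.56, 12.2 and 2.12 CPM in acute and 12.7, 7.65, 5.85, 0 and 3.47 CPM in fibrosis, where replicate 16 had no read assigned. In cirrhosis it was 24.7 to 60.04 CPM (median 46.9), below every healthy and above every acute and fibrosis library. Cd151 log2 fold changes from limma-voom were -4.70 ± 0.41 (SE, adjusted p = 7.01e-07) in acute, -6.13 ± 1.22 (SE, adjusted p = 6.35e-04) in fibrosis and -1.68 ± 0.28 (SE, adjusted p = 4.28e-04) in cirrhosis. The size in fibrosis rests on the library at 0: it was -4.32 without fibrosis replicate 16, -6.81 without replicate 12, -4.60 with edgeR, -4.57 with DESeq2 and -6.80 with quality weights. Expected counts of Cd151 were not whole numbers in 30 of 32 libraries, which means that some of its reads also fitted other sequences and that its values are less certain than those of members counted in whole reads.

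The plot by stage shows members of each course in the CCl4 model. Cd81, Tspan7 and Cd9 fell in acute and fibrosis, Cd63 and Tspan5 rose, and Tspan8 lay near 0 before its rise in cirrhosis.

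**Figure D2:**
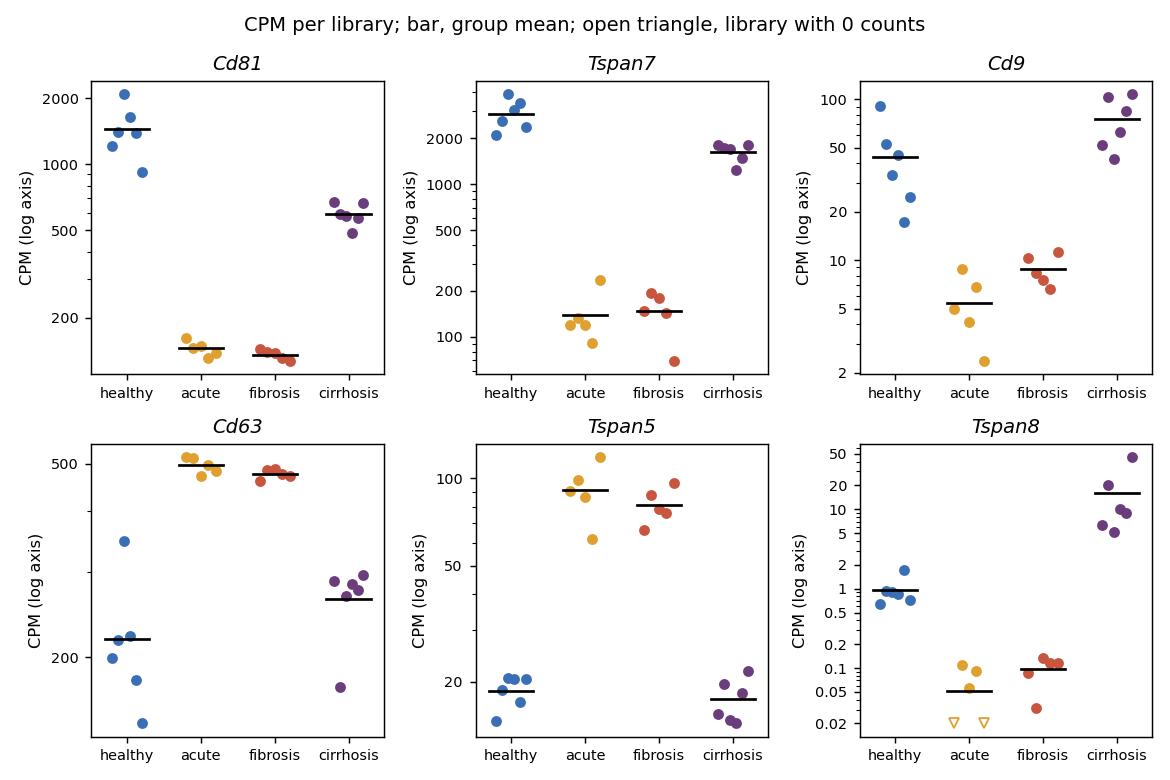
CPM per library on a log axis for Cd81, Tspan7, Cd9, Cd63, Tspan5 and Tspan8 in healthy, acute, fibrosis and cirrhotic libraries, with the group mean as a bar. Open triangles at the foot of the Tspan8 panel are acute libraries with 0 counts, and Tspan5 exceeds 60 CPM in every acute and fibrosis library and stays under 22 CPM in the others.

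Of the tetraspanins with known roles in endothelium or platelets, Tspan12 and Tspan9 fell in acute and fibrosis, and Tspan18 rose in cirrhosis. Tspan7, given with them, also fell in acute and fibrosis. Tspan12, the partner of Fzd4 and Lrp5, was 70.02 to 290.4 CPM (median 147) in healthy libraries, 47.3, 39.4, 49.8, 61.2 and 37.7 CPM in acute and 34.5, 43.2, 35.2, 38.1 and 39.96 CPM in fibrosis. Cirrhotic libraries held 178 to 243 CPM (median 201) of Tspan12, inside the healthy range. The limma-voom log2 fold change was -1.69 ± 0.31 (SE, adjusted p = 3.19e-04) in acute, -1.95 ± 0.31 (SE, adjusted p = 1.07e-04) in fibrosis and 0.41 ± 0.27 (SE, adjusted p = 0.206) in cirrhosis, where it passed with quality weights (0.67) and without TMM (0.75). The receptor genes, chosen after their values were seen, gave log2 fold changes of -1.20, -1.13 and 0.83 for Fzd4 (adjusted p = 0.0199, 0.0198 and 0.0533), and of -3.14, -3.26 and -1.50 for Lrp5 (adjusted p = 8.74e-09, 7.79e-09 and 1.02e-04), in the order acute, fibrosis and cirrhosis.

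TSPAN18 is found in endothelial cells, where it supports calcium entry through ORAI1. Tspan18 was 15.4 to 83.9 CPM (median 36.6) in healthy libraries, 25.4, 27.1, 18.7, 10.7 and 27.6 CPM in acute and 19.9, 26.2, 19.7, 25.03 and 25.7 CPM in fibrosis, within or below the healthy spread. All 6 cirrhotic libraries, at 90.7 to 229 CPM (median 111), exceeded every other CCl4 library. Tspan18 differed by 1.74 ± 0.40 (SE, adjusted p = 0.00293) on the log2 scale in cirrhosis (limma-voom), and by -0.86 ± 0.45 (SE, adjusted p = 0.103) and -0.65 ± 0.42 (SE, adjusted p = 0.175) in acute and fibrosis, which did not pass. Without healthy replicate 2 the acute and fibrosis values were -1.12 and -0.91 and passed as lower, as did the acute value with edgeR, DESeq2 or 1 fit over all CCl4 groups and the fibrosis value with DESeq2. Tspan18 and Cd82 are neighbouring genes in the RefSeq annotation of GRCr8, and in cirrhosis Tspan18 rose while Cd82 fell.

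TSPAN9 was first described in platelets and megakaryocytes. Tspan9 was 580.2 to 1233 CPM (median 988) in healthy libraries, 116, 139, 117, 101 and 88.6 CPM in acute and 93.4, 111, 101, 92.5 and 99.03 CPM in fibrosis. In cirrhosis it was 322 to 448 CPM (median 365), between the other stages and healthy with no overlap. For Tspan9 the log2 fold change (limma-voom) was -3.03 ± 0.19 (SE, adjusted p = 4.29e-08), -3.17 ± 0.17 (SE, adjusted p = 1.91e-08) and -1.34 ± 0.18 (SE, adjusted p = 1.51e-04) in acute, fibrosis and cirrhosis. Its neighbour Tspan11 had at most 8 counts in any CCl4 library and was not tested in that model.

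TSPAN7 is best known from neurons. Tspan7 was 2096 to 3873 CPM (median 2827) in healthy libraries, 120.1, 133, 119, 90.6 and 235 CPM in acute and 147, 194, 179, 144 and 69.7 CPM in fibrosis. Cirrhotic libraries held 1229 to 1797 CPM (median 1713) of Tspan7, all below the lowest healthy library, and every acute and fibrosis library was far below both groups. Its limma-voom log2 fold change was -4.39 ± 0.24 (SE, adjusted p = 1.44e-08) in acute, -4.29 ± 0.25 (SE, adjusted p = 3.43e-08) in fibrosis and -0.81 ± 0.17 (SE, adjusted p = 0.00195) in cirrhosis. The last of these was -0.46 when libraries were scaled by size without TMM, and then lay under the fold-change threshold.

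TSPAN8 is mainly an epithelial tetraspanin and occurs on vesicles. Tspan8 had 19 to 48 counts (median 24.5) in healthy libraries, 0 to 4 in acute, 1 to 4 in fibrosis and 204 to 1838 (median 433) in cirrhosis. Its level was 0.636 to 1.72 CPM (median 0.878) in healthy libraries and 5.18 to 45.5 CPM (median 9.48) in cirrhotic ones. The acute libraries held 0, 0.109, 0.0556, 0.0921 and 0 CPM of Tspan8 and the fibrosis libraries 0.0861, 0.0312, 0.133, 0.115 and 0.117 CPM. The 4 stages overlapped only between acute and fibrosis, and the cirrhotic libraries spread widely, with replicates 2 and 6 highest. In cirrhosis the limma-voom log2 fold change of Tspan8 was 3.70 ± 0.65 (SE, adjusted p = 5.76e-04). In acute and fibrosis so few reads carry the level that no fold or test is given. Cholangiocyte markers (5 genes) summed to 1.72 to 26.6 CPM in healthy libraries, with replicate 1 highest, 0.354 to 0.632 in acute, 2.40 to 14.8 in fibrosis and 6.07 to 10.7 in cirrhosis. Of the 5, Epcam and Cftr were called higher in cirrhosis and none lower, with a median log2 fold change of 1.68, and the part of these cells in the Tspan8 level was not tested.

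The TspanC8 group, which includes the ADAM10 escorts Tspan5, Tspan10, Tspan14, Tspan15, Tspan17 and Tspan33, split in acute injury and fibrosis. Tspan5 rose, Tspan14 and Tspan15 fell, Tspan33 fell in fibrosis, Tspan17 did not pass and Tspan10 had at most 10 counts in a library and was not tested. Tspan5 was 14.6 to 20.5 CPM (median 19.5) in healthy libraries, 90.4, 98.4, 86.4, 61.9 and 118 CPM in acute and 66.7, 87.7, 78.5, 76.1 and 96.4 CPM in fibrosis, with no overlap. In cirrhosis it was 14.3 to 21.8 CPM (median 16.8), overlapping the healthy range. Tspan5 differed on the log2 scale (limma-voom) by 2.30 ± 0.18 (SE, adjusted p = 3.02e-07), 2.19 ± 0.14 (SE, adjusted p = 8.62e-08) and -0.10 ± 0.15 (SE, adjusted p = 0.602) in acute, fibrosis and cirrhosis.

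Tspan14 was 187 to 422 CPM (median 343) in healthy libraries, 72.4, 94.2, 59.1, 60.9 and 77.8 CPM in acute, 50.5, 50.7, 50.2, 48.04 and 43.96 CPM in fibrosis and 117 to 152 CPM (median 134) in cirrhosis. Every injured library of Tspan14 was below the healthy ones. Tspan15 was 32.7 to 68.6 CPM (median 55.9) in healthy libraries, 11.1, 12.5, 10.6, 17.8 and 11.9 CPM in acute, 10.96, 11.8, 15.1, 11.02 and 8.96 CPM in fibrosis and 14.7 to 21.9 CPM (median 17.98) in cirrhosis, again with no overlap with healthy. Log2 fold changes from limma-voom in acute, fibrosis and cirrhosis were -2.11 ± 0.21 (SE, adjusted p = 2.01e-06), -2.64 ± 0.19 (SE, adjusted p = 1.67e-07) and -1.25 ± 0.19 (SE, adjusted p = 2.49e-04) for Tspan14. For Tspan15 they were -2.02 ± 0.22 (SE, adjusted p = 4.68e-06), -2.14 ± 0.22 (SE, adjusted p = 2.83e-06) and -1.55 ± 0.20 (SE, adjusted p = 1.33e-04).

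Tspan17, a further ADAM10 escort, was 0.6202 to 3.76 CPM (median 1.299) in healthy libraries, 1.74, 1.39, 1.45, 1.84 and 1.74 CPM in acute, 2.73, 1.498, 1.06, 1.38 and 1.40 CPM in fibrosis and 0.779 to 2.16 CPM (median 1.297) in cirrhosis. These ranges overlap, with limma-voom log2 fold changes of 0.32 ± 0.42 (SE, adjusted p = 0.495), 0.28 ± 0.45 (SE, adjusted p = 0.582) and 0.03 ± 0.43 (SE, adjusted p = 0.963). TSPAN33 occurs in erythroid and B cells, and Tspan33 had 5 to 95 counts (median 54.5) in healthy libraries, 1 to 3 in acute, 3 to 14 in fibrosis and 20 to 61 in cirrhosis. It was 0.179 to 3.25 CPM (median 1.72) in healthy libraries, 0.0545, 0.0272, 0.0833, 0.02303 and 0.0947 CPM in acute, 0.402, 0.0936, 0.299, 0.258 and 0.117 CPM in fibrosis and 0.508 to 1.21 CPM (median 0.846) in cirrhosis. Tspan33 was called lower in fibrosis (limma-voom adjusted p = 0.0218), and in cirrhosis its adjusted p was 0.537, although it passed with quality weights (log2 fold change -1.03). In acute it passed the filter through the healthy libraries alone, and no test is given. The call in fibrosis was lost without fibrosis replicate 13 (adjusted p = 0.0586), without replicate 17 (0.0564) and without TMM (0.0511). Summed B cell markers (5 genes) were 4.70 to 22.1 CPM in healthy, 0.0921 to 0.736 in acute, 0.765 to 3.78 in fibrosis and 2.01 to 7.67 in cirrhotic libraries, and their part in the Tspan33 level was not tested.

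Adam10, the protease these members escort, rose in all 3 stages. It was 14.1 to 83.4 CPM in healthy libraries (median 30.9), 96.2 to 121 in acute, 76.8 to 98.0 in fibrosis and 67.8 to 125 in cirrhosis. The limma-voom log2 fold change of Adam10 was 1.72 ± 0.38 (SE, adjusted p = 0.00115), 1.40 ± 0.38 (SE, adjusted p = 0.00527) and 1.44 ± 0.35 (SE, adjusted p = 0.00429). Hbegf, a growth factor whose precursor associates with CD9, was -2.30 ± 0.33 (SE, adjusted p = 4.87e-05), -1.81 ± 0.26 (SE, adjusted p = 5.94e-05) and -0.67 ± 0.30 (SE, adjusted p = 0.06997) on the log2 scale, lower in acute and fibrosis and not passing in cirrhosis. Igsf8 encodes an immunoglobulin protein bound by CD9 and CD81 and fell in all stages, at -1.77 ± 0.43 (SE, adjusted p = 0.00234), -1.92 ± 0.45 (SE, adjusted p = 0.00209) and -1.16 ± 0.40 (SE, adjusted p = 0.0236). Its relative Ptgfrn gave 0.44 ± 0.21 (SE, adjusted p = 0.0694), 0.81 ± 0.19 (SE, adjusted p = 0.00217) and 0.64 ± 0.26 (SE, adjusted p = 0.0523), higher in fibrosis and not passing in acute and cirrhosis. Itgb1, the integrin beta chain that pairs with the partners of CD151, rose at each stage, by 2.06 ± 0.24 (SE, adjusted p = 8.59e-06), 2.21 ± 0.22 (SE, adjusted p = 2.75e-06) and 1.12 ± 0.20 (SE, adjusted p = 7.30e-04). Of the 25 listed partners (EWI proteins, integrins, syndecans and other associated proteins), 22 were tested. In acute 6 rose and 12 fell, in fibrosis 9 rose and 11 fell, and in cirrhosis 7 rose and 4 fell, beside 73.4%, 70.2% and 51.8% of all genes called.

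The leukocyte tetraspanins differed from each other. CD53 is found on most leukocytes, and Cd53 was 12.1 to 46.8 CPM (median 13.8) in healthy libraries, 25.3, 23.8, 21.6, 19.6 and 20.4 CPM in acute and 50.2, 19.97, 30.99, 15.6 and 7.61 CPM in fibrosis. Cirrhotic libraries held 32.8 to 87.1 CPM (median 50.5) of Cd53, and of the healthy libraries only replicate 1 lay within their range. The limma-voom log2 fold change of Cd53 was 1.53 ± 0.35 (SE, adjusted p = 0.00289) in cirrhosis, 0.30 ± 0.33 (SE, adjusted p = 0.413) in acute and 0.24 ± 0.49 (SE, adjusted p = 0.6699) in fibrosis, the latter pair not passing, except that the acute value passed without healthy replicate 1 (0.65). CD37 is strongest on B cells, and Cd37 was 6.83 to 98.5 CPM (median 26.5) in healthy libraries, 1.53, 1.91, 0.917, 1.11 and 1.295 CPM in acute and 8.41, 2.59, 1.43, 1.23 and 1.11 CPM in fibrosis. In cirrhosis Cd37 was 6.55 to 16.8 CPM (median 13.7). Cd37 fell in acute at -4.18 ± 0.86 (SE, adjusted p = 7.05e-04) and in fibrosis at -3.44 ± 0.87 (SE, adjusted p = 0.00343) on the log2 scale (limma-voom), although fibrosis replicate 12 reached the healthy range and the fibrosis value was -4.07 with quality weights, and cirrhosis gave -0.98 ± 0.57 (SE, adjusted p = 0.157), which passed with edgeR (-1.51), DESeq2 (-1.51) and quality weights (-1.57) and without healthy replicate 5 (-1.37). Summed macrophage markers were lower in acute and fibrosis and overlapped between healthy and cirrhosis, as given above, and 0 of 10 were called in cirrhosis. Of 3 neutrophil markers tested in cirrhosis, S100a8 and S100a9 were called higher and Csf3r gave a log2 fold change of -1.48 (adjusted p = 0.0755), and the 4 on the list summed to 3.46 to 44.9 CPM in healthy and 2.46 to 13.3 in cirrhotic libraries. T cell markers (5 genes) had a median log2 fold change of 1.62 in cirrhosis with 0 called by limma-voom and 3 at an unadjusted p under 0.05, and summed to 2.58 to 28.7 CPM in healthy and 6.38 to 20.3 in cirrhotic libraries. Summed B cell markers are given with Tspan33 above, and of 4 tested in cirrhosis 1 was called lower and 0 higher. The part of leukocytes in the levels of Cd37 and Cd53 was not tested. The third member of this kind, Tspan32, had 0 to 24 counts in a library and was not tested.

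**Figure D3:**
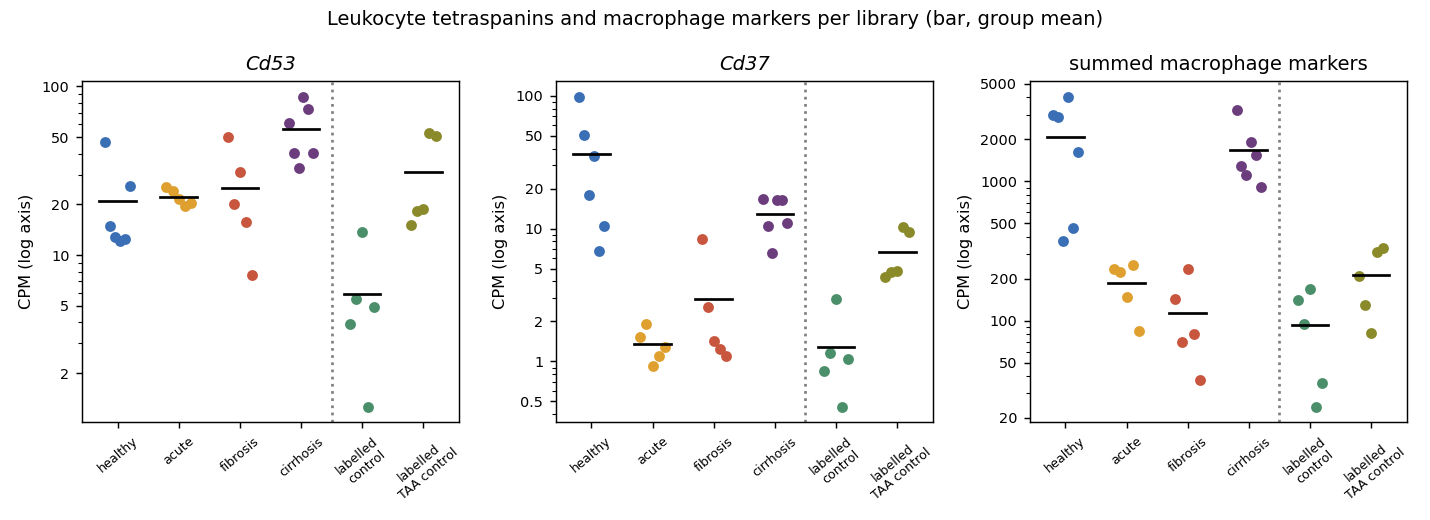
CPM per library on a log axis for Cd53, Cd37 and the sum of 10 macrophage markers, with the group mean as a bar, in the 4 CCl4 groups and, right of the dotted line and scaled apart, the groups labelled control and TAA control. The mean of Cd53 is highest in cirrhosis among the CCl4 groups, Cd37 is spread from 6.83 to 98.5 CPM among healthy libraries, and replicates 14 and 15 labelled TAA control stand above the rest of their group for Cd53 and Cd37.

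Among the uroplakin and photoreceptor members, Rom1 fell at every stage. ROM1 shapes the rim of photoreceptor discs, and Rom1 was 4.99 to 12.0 CPM (median 8.26) in healthy libraries, 2.48, 1.74, 2.58, 2.37 and 1.96 CPM in acute, 3.30, 2.47, 2.39, 2.15 and 2.45 CPM in fibrosis and 2.88 to 3.47 CPM (median 3.08) in cirrhosis. No injured library reached the healthy range of Rom1, and the limma-voom log2 fold changes were -1.80 ± 0.25 (SE, adjusted p = 3.30e-05), -1.57 ± 0.24 (SE, adjusted p = 7.95e-05) and -1.33 ± 0.21 (SE, adjusted p = 3.09e-04). Upk1b encodes a urothelial plaque protein also made by mesothelium, and had 3 to 117 counts (median 38) in healthy libraries, 0 to 2 in acute, 0 to 5 in fibrosis and 8 to 52 in cirrhosis. In CPM Upk1b was 0.117 to 3.92 CPM (median 1.27) in healthy libraries, 0.0545, 0.0272, 0, 0.02303 and 0.0316 in acute, 0, 0, 0, 0.144 and 0 in fibrosis and 0.159 to 1.12 CPM (median 0.552) in cirrhosis. Upk1b did not pass in cirrhosis (limma-voom adjusted p = 0.2901), and in acute and fibrosis it passed the filter through the healthy libraries alone, so that no test is given. Mesothelial markers (4 genes) summed to 3.47 to 88.2 CPM in healthy, 0.409 to 1.75 in acute, 1.98 to 4.36 in fibrosis and 4.29 to 10.2 in cirrhotic libraries, and healthy replicate 1 was highest both for them and for Upk1b. Their part in the Upk1b level was not tested. Upk1a had at most 25 counts in any library and was tested only in cirrhosis against fibrosis, where it did not pass.

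Tspan2, a tetraspanin of oligodendrocytes, was 1.92 to 10.5 CPM (median 5.697) in healthy libraries, 6.29, 7.93, 9.31, 10.96 and 9.095 CPM in acute, 5.94, 4.74, 7.02, 3.93 and 3.76 CPM in fibrosis and 5.32 to 10.3 CPM (median 9.05) in cirrhosis. The healthy range overlapped that of every stage, with healthy replicate 1 high. Tspan2 was called higher in acute at 0.90 ± 0.38 (SE, adjusted p = 0.0444) on the log2 scale (limma-voom), and did not pass in fibrosis at 0.13 ± 0.41 (SE, adjusted p = 0.7804) or in cirrhosis at 0.80 ± 0.35 (SE, adjusted p = 0.0674). The acute call was lost with edgeR (adjusted p = 0.120), with DESeq2 (adjusted p = 0.0638), with upper-quartile factors (adjusted p = 0.0593), and without any of 6 libraries in turn (healthy replicates 2 and 4 and acute replicates 2, 3, 4 and 8), with log2 fold changes of 0.63 to 0.95 and adjusted p of 0.0575 to 0.106. This call was also lost with the replicate number as a block, and kept in the same libraries without the block. In cirrhosis it passed without healthy replicate 1 (1.03) or cirrhosis replicate 2 (0.90), with quality weights or 1 fit over all CCl4 groups, and under upper-quartile factors or no TMM.

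TSPAN4 builds migrasomes, vesicle-bearing tracks behind moving cells. Tspan4 was 110.4 to 725 CPM (median 372) in healthy libraries, 218, 218, 212, 172 and 212 CPM in acute, 157, 155, 135, 141 and 177 CPM in fibrosis and 67.4 to 98.5 CPM (median 93.4) in cirrhosis. Healthy replicate 6 was the lowest of its group and lay below every acute and fibrosis library, and all cirrhotic libraries lay below the other stages. Its limma-voom log2 fold change was -0.67 ± 0.36 (SE, adjusted p = 0.109) in acute, -1.06 ± 0.36 (SE, adjusted p = 0.0181) in fibrosis and -1.92 ± 0.35 (SE, adjusted p = 7.08e-04) in cirrhosis, of which the first did not pass. It passed without healthy replicate 6 (-0.89) and with edgeR, DESeq2, quality weights or 1 fit over all CCl4 groups, and the fibrosis call was lost without TMM (-0.67). Tspan4 and Tspan31 had expected counts that were not whole in 31 of 32 libraries, so that some of their reads also fitted other sequences.

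The remaining members tested against healthy were Tspan3, Tspan6, Tspan13 and Tspan31. Tspan13 fell to 7.63 to 11.9 CPM in acute and 6.24 to 16.6 in fibrosis from 65.2 to 91.1 in healthy libraries, with limma-voom log2 fold changes of -3.06 ± 0.17 (SE, adjusted p = 1.79e-08) and -2.88 ± 0.24 (SE, adjusted p = 5.63e-07). In cirrhosis Tspan13 was 91.6 to 145 CPM, above every healthy library, and at 0.53 ± 0.15 (SE, adjusted p = 0.007796) it stayed under the fold-change threshold, which it passed without cirrhosis replicate 3 (0.59), with upper-quartile factors (0.67) and without TMM (0.88). Tspan31, whose gene adjoins Cdk4, was 76.1 to 140 CPM in healthy and 54.1 to 74.3 in cirrhotic libraries, and was called lower in cirrhosis at -0.78 ± 0.17 (SE, adjusted p = 0.00208) (-0.43 and not called when libraries were scaled by size without TMM). In acute and fibrosis Tspan31 was -0.43 ± 0.16 (SE, adjusted p = 0.0277) and -0.55 ± 0.17 (SE, adjusted p = 0.0102), under the fold-change threshold, which the fibrosis value passed with quality weights (-0.72), with 1 fit over all CCl4 groups (-0.62) and without healthy replicate 5 (-0.60) or 6 (-0.71). Tspan3 lay between -0.36 and -0.13 and Tspan6 between -0.22 and 0.44 on the log2 scale over the 3 stages, and neither was called, although Tspan6 passed in cirrhosis with quality weights (0.62) and without TMM (0.79). Tspan1 had at most 15 counts in a library and was not tested.

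**Figure D4:**
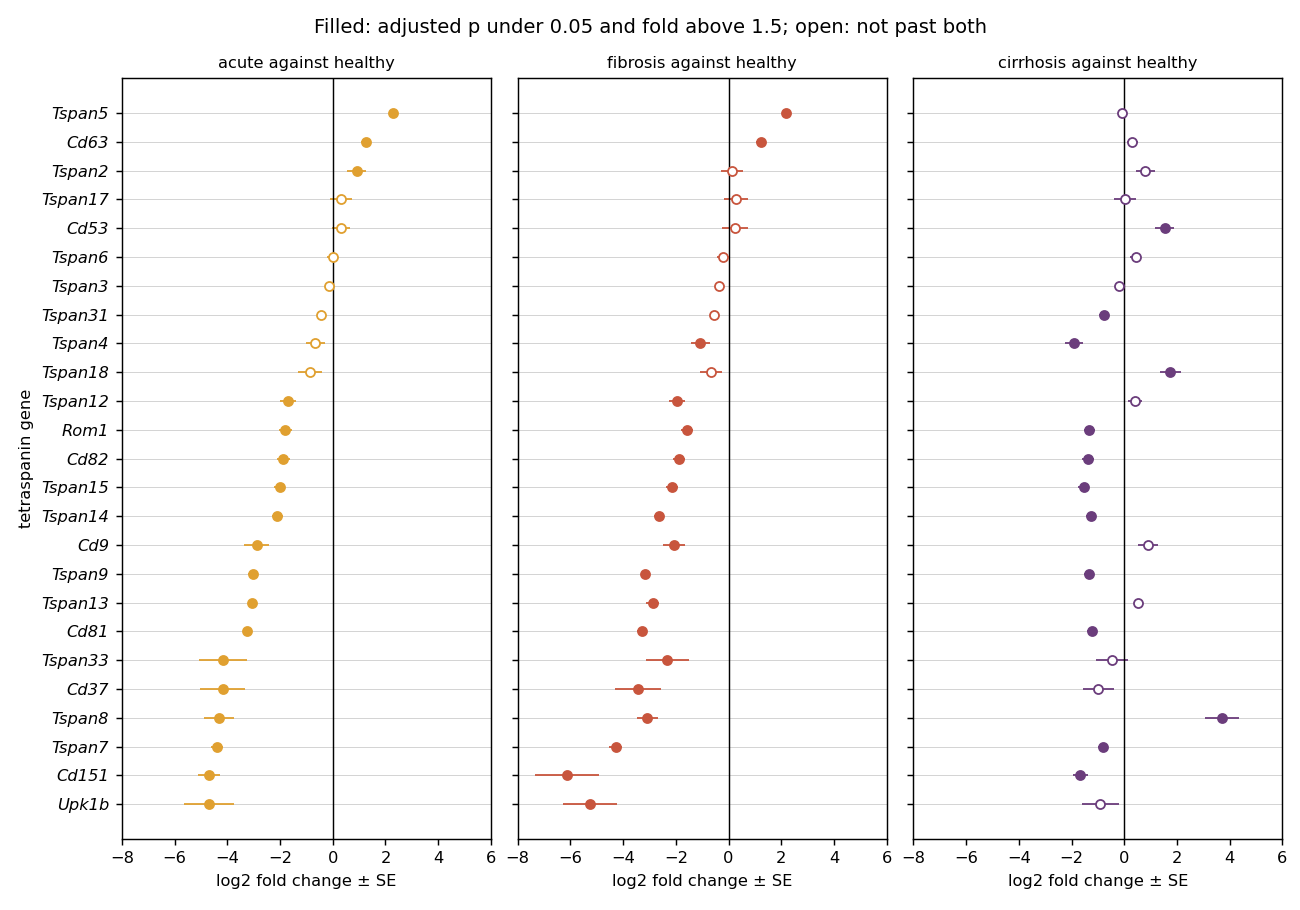
Log2 fold change ± SE from limma-voom of the 25 tested members (rows) in acute, fibrosis and cirrhosis against healthy LSECs, filled where adjusted p was under 0.05 and the fold-change above 1.5. Points of Tspan8, Tspan33 and Upk1b in acute and fibrosis rest on a few counts per library, and 15 points lie left of 0 in the cirrhosis panel, against 20 in each of the others. Tspan8 and Upk1b in acute and fibrosis, and Tspan33 in acute, passed the filter through the healthy libraries alone. Their points had to lie left of 0, and their fill is not a test.

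Because endothelial markers as a whole were lower in injured libraries, the members were also set beside them, a scale chosen after the data were seen. The log2 difference of the summed pan-endothelial markers from healthy was -2.01 in acute, -2.40 in fibrosis and -0.95 in cirrhosis, and 12, 9 and 9 of the 25 tested members had a lower log2 fold change than that. The 12 in acute include Tspan8, Tspan33 and Upk1b, and the 9 in fibrosis include Tspan8 and Upk1b. These passed the filter through the healthy libraries alone and had to be lower. Per 1000 CPM of these markers, Tspan7 was 197 to 249 in healthy, 31.6 to 87.7 in acute, 30.2 to 72.8 in fibrosis and 222 to 267 in cirrhotic libraries, so that acute and fibrosis stayed apart from the others. Cd81 was 97.1 to 130.3, 37.8 to 51.5, 52.2 to 63.5 and 83.8 to 100.2 on this scale, again lower in acute and fibrosis with no overlap. Cd82, in contrast, was 22.6 to 41.5, 25.3 to 49.1, 40.1 to 48.98 and 17.1 to 29.3, and overlapped between healthy and every stage. Cd9, Tspan12, Tspan14 and Tspan15 likewise overlapped healthy in both acute and fibrosis. Tspan12, for example, was 6.13 to 25.3 in healthy, 10.2 to 21.3 in acute and 14.2 to 17.7 in fibrosis. Tspan9 and Cd151 stayed below healthy in both with no overlap, and Tspan13 and Cd37 did so in acute only. Rom1 and Tspan4, called lower in fibrosis, lay above healthy there on this scale with no overlap. Rom1 was 0.925 to 1.45 in fibrosis against 0.526 to 0.803 in healthy, and Tspan4 was 54.7 to 76.7 against 11.6 to 45.4. Cd63 was 13.1 to 21.7 in healthy, 133 to 180.4 in acute, 182 to 221 in fibrosis and 24.4 to 51.03 in cirrhotic libraries, above healthy at all stages. This was not particular to Cd63, as Tspan3, Tspan5 and Tspan6 also lay above healthy at all stages with no overlap. Tspan3, for example, was 4.92 to 6.71 in healthy and 8.77 to 10.8 in cirrhotic libraries, and Tspan3 and Tspan6 were not called against healthy in CPM. The part of the endothelial share of the cells in the falls was not tested.

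Fibrosis against acute injury asks what changes with longer exposure. Of 22 members tested, 1 was called, beside 11% of all genes (10.2% higher and 0.732% lower), and with unadjusted p 2 were called, beside 15.7%. CPM did not overlap for 1 member, beside 17.2% of all genes. Tspan2 was lower in fibrosis at -0.73 ± 0.21 (SE, adjusted p = 0.0341) on the log2 scale (limma-voom). This call was lost with quality weights (log2 fold change -0.58), with 1 fit over all CCl4 groups (adjusted p = 0.147), and without acute replicate 2, 3 or 4 or fibrosis replicate 13, 16 or 17 (adjusted p of 0.0566 to 0.0858). Tspan14 (-0.48 ± 0.12 (SE, adjusted p = 0.01999)) and Tspan4 (-0.35 ± 0.09 (SE, adjusted p = 0.0197)) passed the adjusted p but not the fold-change threshold. Cd63 gave 0.02 ± 0.05 (SE) and Cd81 gave -0.01 ± 0.07 (SE) on the log2 scale. Cd9, at 0.86 ± 0.30 (SE, adjusted p = 0.06496), passed as higher with DESeq2 (0.78) and without acute replicate 2 (1.05).

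Cirrhosis against fibrosis asks what separates the last stage from the one before. Here 17 members were higher and 3 lower of 26 tested, beside 63.8% of all genes called (34.3% higher and 29.5% lower; 64.2% on unadjusted p, with the same count of 20 members), with a median log2 fold change of 1.40 over the members and 0.04 over all genes. CPM did not overlap for 17 members, beside 63.3% of all genes. Tspan8 and Upk1b passed the filter through the cirrhotic libraries alone, and without such genes 15 of 24 members were higher and 3 lower, with a median of 1.04. Of the 14481 genes then left, 62.1% were called (4713 higher and 4274 lower). CPM of 15 of the 24 did not overlap, and the share of all genes without overlap was not computed after this exclusion. Among the rises were Tspan7 at 3.53 ± 0.24 (SE, adjusted p = 7.16e-08), Tspan13 at 3.47 ± 0.23 (SE, adjusted p = 5.09e-08), Cd9 at 3.03 ± 0.30 (SE, adjusted p = 1.79e-06), Tspan12 at 2.41 ± 0.09 (SE, adjusted p = 5.16e-10), Tspan18 at 2.44 ± 0.23 (SE, adjusted p = 1.05e-06) and Cd81 at 2.12 ± 0.09 (SE, adjusted p = 7.94e-10) on the log2 scale (limma-voom). The falls were Tspan5 at -2.23 ± 0.13 (SE, adjusted p = 1.40e-08), Cd63 at -0.87 ± 0.13 (SE, adjusted p = 4.11e-05) and Tspan4 at -0.79 ± 0.11 (SE, adjusted p = 3.12e-05). Tspan15 was called higher at 0.65 ± 0.15 (SE, adjusted p = 0.00173), and the call was lost without fibrosis replicate 17 (0.56) and without TMM (0.54). The other rises were those of Cd37, Cd53, Cd151, Tspan2, Tspan6, Tspan9, Tspan14 and Tspan33.

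Against acute injury, 14 members were higher and 3 lower in cirrhosis of 25 tested, beside 69.3% of all genes called (37.5% higher and 31.8% lower; 69.7% on unadjusted p, with the same count of 17 members), with a median log2 fold change of 1.26 over the members and 0.04 over all genes. CPM did not overlap for 18 members, beside 65.9% of all genes. Without Tspan8, Tspan33 and Upk1b, which passed the filter through the cirrhotic libraries alone, 11 of 22 members were higher and 3 lower, with a median of 0.71. Of the 13960 genes left once such genes are out, 67.0% were called (4744 higher and 4610 lower). CPM of 15 of the 22 did not overlap, and the share of all genes without overlap was not computed after this exclusion. Cd9 was 3.82 ± 0.39 (SE, adjusted p = 1.69e-06), Tspan7 3.61 ± 0.22 (SE, adjusted p = 1.33e-08), Tspan12 2.13 ± 0.13 (SE, adjusted p = 1.42e-08), Tspan5 -2.37 ± 0.17 (SE, adjusted p = 5.62e-08) and Cd63 -0.93 ± 0.12 (SE, adjusted p = 1.28e-05) on the log2 scale (limma-voom). Cd82 and Tspan15 were under the fold-change threshold, at 0.52 ± 0.16 (SE, adjusted p = 0.00918) and 0.49 ± 0.16 (SE, adjusted p = 0.0106), and both passed with upper-quartile factors (0.71 and 0.68). Cd82 also passed with no low-count filter (0.60) and without acute replicate 8 (0.60) or cirrhosis replicate 6 (0.60), and Tspan15 with quality weights (0.59) and without acute replicate 4 (0.63). The comparison shares the cirrhotic libraries with the one before it.

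Acute against healthy and cirrhosis against fibrosis have no library in common. Of the 15 members lower in the former, 13 were higher in the latter, which is 86.7% of the 15 and 76.5% of the 17 members higher there. Over all genes tested in both, the shares were 72.7% of 5370 and 83.6% of 4669. Without genes that passed the filter through 1 group alone they were 10 of 12 members (83.3%, and 71.4% of the 14 higher), beside 70.7% and 82.0% over all genes. Of the 3 members higher in acute, Cd63 and Tspan5 were lower in cirrhosis against fibrosis and Tspan2 was higher. Cd82 and Rom1 were the members lower in acute that did not pass in cirrhosis against fibrosis, at 0.56 ± 0.11 (SE, adjusted p = 5.35e-04) and 0.29 ± 0.13 (SE, adjusted p = 0.0695) on the log2 scale (limma-voom), the former under the fold-change threshold. Cd82 passed as higher in 5 other settings (DESeq2, quality weights, DESeq2 size factors, upper-quartile factors and no low-count filter, at 0.59 to 0.65) and without cirrhosis replicate 2 (0.63) or 6 (0.64).

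In the TAA experiment the group labelled TAA control was compared with the group labelled control, and no disease direction is given. Of 24 members tested, 4 were higher and 5 lower in the group labelled TAA control, beside 27.6% of all genes called (12.7% higher and 14.9% lower), and with unadjusted p the count was 9, beside 29.4%. The median log2 fold change was -0.02 over the members and 0.03 over all genes, and CPM did not overlap for 9 members, beside 35.4% of all genes. LSEC markers summed to 18680 to 22920 CPM in the group labelled control and 22920 to 29950 in the group labelled TAA control. Stellate cell markers summed to 663 to 1351 and 211 to 384 CPM, and macrophage markers to 24.2 to 169 and 81.6 to 334 CPM, in the same order.

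Of the vesicle and surface members, Cd63 was 212, 208, 251, 278 and 306 CPM in libraries labelled control and 160.4, 151, 137, 136 and 142 CPM in those labelled TAA control, with no overlap and a limma-voom log2 fold change of -0.77 ± 0.11 (SE, adjusted p = 2.80e-04). Cd9 was 54.3, 40.3, 31.2, 81.9 and 55.7 CPM against 19.8, 16.6, 25.5, 34.2 and 31.7 CPM, with overlap and a log2 fold change of -1.03 ± 0.27 (SE, adjusted p = 0.00875). Cd82 was 109, 116, 109.7, 94.7 and 111 CPM against 197, 195, 189, 178 and 175 CPM, apart in all libraries, at 0.79 ± 0.07 (SE, adjusted p = 1.97e-05). Cd81 and Cd151 did not pass. Cd81 was 807, 744, 665, 653 and 676 CPM against 839, 799, 845, 773 and 779 CPM, at 0.19 ± 0.08 (SE, adjusted p = 0.0581) on the log2 scale (limma-voom), and Cd151 was 34.2, 38.3, 22.5, 25.1 and 22.8 CPM against 58.3, 22.6, 34.4, 22.2 and 13.1 CPM, at -0.05 ± 0.34 (SE, adjusted p = 0.905).

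Tspan8 had 290 to 477 counts in libraries labelled control and 5 to 62 in those labelled TAA control. Its CPM were 10.2, 16.7, 14.5, 14.7 and 12.2 against 0.815, 0.167, 2.04, 1.58 and 2.23, with a limma-voom log2 fold change of -3.75 ± 0.50 (SE, adjusted p = 1.98e-04), which was -3.11 without replicate 12 labelled TAA control. Cholangiocyte markers, of which 4 of 4 tested were lower, summed to 4.27 to 9.76 CPM in libraries labelled control and 1.14 to 2.41 in those labelled TAA control, and hepatocyte markers, of which 6 of 6 were lower, to 2067 to 5234 and 532 to 1222 CPM. Their part in the Tspan8 level was not tested. Tspan18 was 327, 221, 172, 288 and 196 CPM against 93.7, 85.3, 89.9, 82.5 and 87.5 CPM, with no overlap, at -1.42 ± 0.15 (SE, adjusted p = 6.07e-05). Tspan2 was 16.4, 8.10, 7.804, 11.1 and 5.73 CPM against 27.8, 20, 19.8, 29.8 and 28.6 CPM, higher in every library labelled TAA control, at 1.44 ± 0.24 (SE, adjusted p = 7.55e-04). Tspan5 was 13.7, 16.9, 14.99, 20.2 and 24.02 CPM against 11.5, 14.6, 11.3, 10.5 and 10.5 CPM, with overlap, at -0.60 ± 0.16 (SE, adjusted p = 0.0104). The last call fell under the fold-change threshold without replicate 4 (-0.56) or 5 (-0.48) labelled control, without replicate 14 (-0.57) or 15 (-0.56) labelled TAA control, and with the latter pair averaged (-0.57).

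Leukocyte members were higher in the group labelled TAA control. Cd53 was 3.91, 5.51, 13.8, 1.27 and 4.92 CPM against 15.2, 18.4, 18.7, 52.8 and 51.1 CPM, and Cd37 was 0.846, 1.16, 2.94, 0.458 and 1.04 CPM against 4.31, 4.67, 4.81, 10.2 and 9.45 CPM. Both were apart in all libraries, and replicates 14 and 15, the last values of each list, were the highest. Log2 fold changes from limma-voom were 2.55 ± 0.61 (SE, adjusted p = 0.00544) for Cd53 and 2.49 ± 0.46 (SE, adjusted p = 0.00133) for Cd37. Cd53 and Cd37 kept their calls with replicates 14 and 15 averaged as 1 and without either of them. Of 10 macrophage markers 1 was called higher, and of 3 T cell markers tested 2 were, with T cell marker sums of 0.282 to 2.98 CPM in libraries labelled control and 2.28 to 8.29 in those labelled TAA control. Neutrophil markers summed to 0.176 to 1.68 and 1.05 to 9.48 CPM, with replicates 14 (9.48) and 15 (8.13) highest. B cell markers went the other way at the median, with overlap. They summed to 1.58 to 20.8 CPM (median 15.9) in libraries labelled control and 1.19 to 21.9 (median 3.15) in those labelled TAA control. Only 1 B cell marker was tested, with a log2 fold change of -1.57, and it was not called. The part of leukocytes in these values was not tested.

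Unlike Tspan18, the members Tspan7, Tspan12 and Tspan9 did not pass. Tspan7 was 2487, 2212, 1758, 1701 and 1766 CPM against 2806, 2464, 2580, 2158 and 2222 CPM, Tspan12 was 357, 346, 299, 309 and 360.3 against 422, 372, 315, 274 and 270.3, and Tspan9 was 586, 515, 483, 456 and 457 against 473, 469, 454, 418 and 408. Their limma-voom log2 fold changes were 0.31 ± 0.13 (SE, adjusted p = 0.0599), -0.04 ± 0.13 (SE, adjusted p = 0.835) and -0.17 ± 0.09 (SE, adjusted p = 0.126). Tspan14 (0.39 ± 0.11 (SE, adjusted p = 0.0118)), Tspan15 (0.43 ± 0.11 (SE, adjusted p = 0.008903)) and Tspan13 (-0.49 ± 0.13 (SE, adjusted p = 0.007799)) passed the adjusted p and not the fold-change threshold. Among the 21 partners tested, 1 was higher and 10 lower in the group labelled TAA control, beside 27.6% of all genes called, with Itgb1 at -0.89 ± 0.07 (SE, adjusted p = 1.66e-05) and Ptgfrn at -1.73 ± 0.27 (SE, adjusted p = 5.08e-04) among the lower ones, while Adam10 at -0.47 ± 0.12 (SE, adjusted p = 0.00806) did not reach the fold-change threshold.

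**Figure D5:**
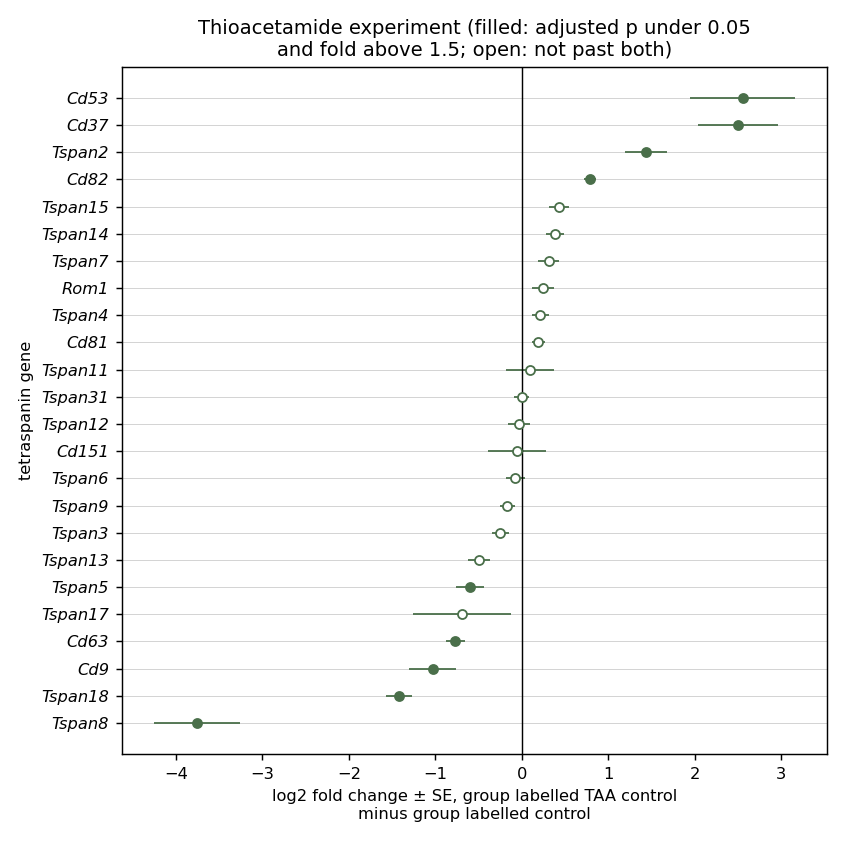
Log2 fold change ± SE from limma-voom of the 24 tested members in the group labelled TAA control minus the group labelled control, filled where adjusted p was under 0.05 and the fold-change above 1.5. Cd53, Cd37, Tspan2 and Cd82 are filled on the right and Tspan8, Tspan18, Cd9, Cd63 and Tspan5 on the left.

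Members called both in cirrhosis against healthy and in the TAA experiment were Cd53, Cd82, Tspan8 and Tspan18, from libraries that the comparisons do not share. Cd53 was 1.53 and 2.55 on the log2 scale, Cd82 -1.38 and 0.79, Tspan8 3.70 and -3.75, and Tspan18 1.74 and -1.42, in that order. As coded, 1 of the 4 had the same sign in both. Most genes called in both also had opposite signs. Of 3573 genes lower in cirrhosis, 620 were called with the opposite sign in the TAA experiment and 99 with the same sign. Of 3845 genes higher in cirrhosis the numbers were 975 and 240. Since the treated group of the TAA experiment is not settled, the signs give no relation between the toxins.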

How the data were processed

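RNA of 32 LSEC libraries was analysed from the expected counts per gene that the authors deposited. Per the study's methods and processing notes, reads of stranded mRNA libraries were trimmed with Trim Galore, aligned with STAR to Rnor_6.0 and quantified with RSEM, which divides reads that fit several genes. Tool versions, the gene annotation and the strand setting are not given in the sources used here. Groups were taken from the sample labels.

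Expected counts were rounded, filtered with filterByExpr, scaled by TMM (edgeR 4.0.16) and tested with limma-voom (limma 3.58.1, R 4.3.3) in fits of 2 groups. TMM and limma-voom follow the study's methods, while the rounding, the filter, the fits of 2 groups and the adjustment of p by Benjamini-Hochberg over all genes tested were chosen here. A call needed an adjusted p under 0.05 and a fold-change above 1.5. In the heatmap 0.5 CPM was added before the logarithm. The 197 rows without a gene symbol held no member. Totals of 25646531 to 46464289 counts set the precision, and members with few counts are given in counts. Alternatives were edgeR's quasi-likelihood test, DESeq2 1.42.0, quality weights, other scalings, filters and thresholds, 1 fit over the CCl4 groups, the replicate block and leaving out each library. Leaving out genes of which 1 group had no library at the filter's CPM minimum was chosen after seeing the data. The scripts were tested on simulated data. Promoters came from the RefSeq table of GRCr8, and figures were drawn with matplotlib 3.10.9 in Python 3.11.15.

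Family members, partner lists, cell type markers and the rule for named genes were chosen with earlier results of these data known. By that rule values per library were printed for the surface, leukocyte and TspanC8 members, for Tspan8, Tspan9, Tspan12 and Tspan18, and for the 3 largest rises and falls of the comparisons with healthy and in the TAA experiment. Other members were given by fold changes, and partners by counts with 5 named, to which Fzd4 and Lrp5 were added after their values were seen. Prph2, named by the family rule, was not analysed here.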

Additional observations from a re-analysis of the deposited data

Results flagged for a closer look

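Dixon's ratio marked 1 library as far from its group in 7 of 149 groups looked at, and chance alone gives about 7.45 of 149. Cd63 was 173.8 CPM in cirrhosis replicate 2, below the other cirrhotic libraries at 267.8 to 295.2 CPM. Tspan4 was 172.4 CPM in acute replicate 4, below the others of that group at 211.5 to 218.4 CPM. Tspan8 was 1.716 CPM in healthy replicate 5, above the other healthy libraries at 0.636 to 0.924 CPM. Among libraries labelled control in the TAA experiment, Cd82 was 94.7 CPM in replicate 4 (others 109.3 to 115.5 CPM) and Tspan13 was 158.5 CPM in replicate 1 (others 97.35 to 107 CPM). Among those labelled TAA control, Tspan13 was 93.03 CPM in replicate 10 (others 74.28 to 79.25 CPM) and Tspan5 was 14.55 CPM in replicate 12 (others 10.49 to 11.51 CPM).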

How the results depend on the processing

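Of 172 member differences recomputed, 96 were called. The 96 include those of Tspan8, Tspan33 and Upk1b that passed the filter through 1 group alone, so that their direction was fixed. Numbers of members called below also include these genes where tested, and counts without them are given with the comparisons above. No called difference changed sign in any setting in which its gene was tested, and 88 kept the call in all of those settings. Of the called differences, 8 lost the call in a setting other than leaving out a library and 5 when 1 library was left out. Settings in which the filter dropped the gene are not counted as a loss. In acute against healthy, Upk1b and Tspan33 were tested in 6 of the 11 runs that left out a library. Upk1b was likewise tested in 6 of 11 in fibrosis against healthy and in cirrhosis against fibrosis or acute. Of the 76 not called, 25 changed sign and 18 became called in some setting other than the thresholds. The number of members called ranged over the alternatives from 17 to 20 in acute, 16 to 20 in fibrosis and 13 to 18 in cirrhosis against healthy, 19 to 22 in cirrhosis against fibrosis, 17 to 22 in cirrhosis against acute and 8 to 12 in the TAA experiment. The share of all genes called moved over the same settings. In that order it was 57.1% to 77.3%, 53.9% to 74.4%, 37.9% to 62.6%, 51.4% to 78.3%, 54.4% to 80.7% and 21% to 49.7%. In fibrosis against acute the 1 member called became 2 on unadjusted p, with DESeq2 or with no low-count filter, 3 with no fold-change threshold, and 0 with quality weights or 1 fit over all CCl4 groups, and the cause was not tested. Over all genes the share called there was 4.79% to 20.3%. Leaving out each library gave 16 to 18, 17 to 18, 13 to 15, 0 to 1, 19 to 21, 16 to 18 and 8 to 9 members called, in the order acute, fibrosis and cirrhosis against healthy, fibrosis against acute, cirrhosis against fibrosis, cirrhosis against acute and the TAA experiment. The share of all genes called in these runs was 71.3% to 74.6%, 67.7% to 72.1%, 45.6% to 56.8%, 7.17% to 15.4%, 62.4% to 63.9%, 68% to 69.4% and 25.1% to 28.4%. With the replicate number as a block, 17 members were called in acute against healthy (18 in the same libraries without the block), 13 in cirrhosis against healthy (13) and 18 in cirrhosis against acute (18). Of all genes, 76.5% (76.1% without the block), 49.2% (51.8%) and 67% (67.6%) were called, in that order. Under the block Tspan2 was no longer called in acute (log2 fold change 1.01, adjusted p = 0.0937), and Cd82 and Tspan15 passed in cirrhosis against acute (0.73 and 0.61), as they did in the same libraries without it. Deviations of same-numbered libraries correlated at -0.35 to 0.35 between healthy and cirrhosis, 0.03 to 0.26 between healthy and acute and -0.16 to 0.15 between acute and cirrhosis, not all above 0.1 in any of these, and the numbers were not taken to pair the libraries, and comparisons with fibrosis and the TAA experiment share too few numbers for a block. Levels of members with few reads, such as Tspan8 in acute and fibrosis, are limited by depth.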
